A study of Mus musculus with 6 samples.

Results

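The genes of mouse chromosome 7 were ordered by position around Sphk2, the gene for sphingosine kinase 2, and their levels were compared along the chromosome between libraries labelled wild type and libraries labelled SphK2 null. A member is a gene listed on chromosome 7 with at least 60 counts summed over the 6 libraries. There were 1122 members among the 14936 genes of the genome with that summed count. The files list 3897 genes on chromosome 7, of which 1895 had no count and 880 had 1 to 59. Of the members, 443 have their smallest start between 15 and 60 Mb and 679 lie on the rest of the chromosome. Just inside the threshold were D930028M14Rik, Fsd2 and Tmc3 with 60 counts each, and just outside it Gm12778 with 59 and Stk33 and Klk10 with 58.

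The series measured RNA by single-read sequencing in embryonic fibroblasts of C57BL/6 mice. The cells came from embryos of 14 days and were at passage 16, in medium with 10% serum. Both groups shared these conditions: 3 libraries had the wild-type genotype (WT) and 3 the SphK2 null genotype (KO). No label says whether libraries of a group came from separate embryos or cultures, how many lines were used or which bases of Sphk2 were removed. The p-values therefore rest on differences among libraries that could be technical replicates. The libraries held 15598566 to 23681718 counts, and the coefficient of variation between replicates beyond counting noise was 2.24%. All 10 fibroblast markers were lower in the libraries labelled KO, where their summed level was 3334 to 3366 CPM (counts scaled to library size) against 12263 to 12642 in WT, and Thy1 was at 0. Summed epithelial markers were at 383 to 410 CPM in KO and 107 to 110 in WT; of the 7 only 2 had enough counts to be tested, 1 higher and 1 lower. The sums for endoderm, macrophages and endothelium were under 7 CPM in every library. The part of these markers in the positional pattern was not tested, and fewer cells of a type cannot be told apart from less RNA per cell.

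The targeted gene went against its label. Sphk2 (chr7:45709467-45718002, minus strand, GRCm38; ENSMUSG00000057342) had 654, 418 and 503 counts in the WT libraries and 964, 883 and 921 in those labelled KO. In CPM this was 27.3 ± 0.906 (SD, n = 3) in WT and 50.1 ± 1.36 (SD, n = 3) in KO. The groups did not overlap, and the log2 fold change, KO minus WT, was 0.87 ± 0.05 (SE; edgeR quasi-likelihood test with Benjamini-Hochberg adjustment over all genes, adjusted p = 3.94e-64). A count per gene does not separate exons, so it does not show whether a deleted part was transcribed. All directions below are those of the libraries labelled KO.

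Sphingosine kinase 2 phosphorylates sphingosine to sphingosine-1-phosphate, partly in the nucleus, where that lipid is known to inhibit class I histone deacetylases. Mouse embryonic fibroblasts change karyotype during passage, and whole chromosomes or segments are gained or lost in such cultures. Where a segment is present in an extra copy, transcripts of most of its genes tend to follow the copy number, so neighbouring genes of unrelated function shift by a like amount between sharp borders. An extra copy beside a normal pair would give a ratio of 1.5, which is 0.58 on the log2 scale, if transcript level followed copy number. DNA copy number was not measured in these samples, and whether it differs was not tested.

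Sphk2 and Rpl18 are shown because the starts used here lie head to head, so that their windows share 1 stretch of DNA. In the annotation used for counting, Rpl18 begins at 45715457, inside Sphk2, and the gene bodies overlap. The windows are from RefSeq on GRCm38.p6 and run 5′ to 3′ from 250 bases before to 50 bases after a start of each gene. Capitals mark the 168 bases that both windows hold, chr7:45717953-45718120, which read as reverse complements of each other. Sphk2 is on the minus strand (window chr7:45717953-45718252) and Rpl18 on the plus strand (window chr7:45717821-45718120).
Sphk2: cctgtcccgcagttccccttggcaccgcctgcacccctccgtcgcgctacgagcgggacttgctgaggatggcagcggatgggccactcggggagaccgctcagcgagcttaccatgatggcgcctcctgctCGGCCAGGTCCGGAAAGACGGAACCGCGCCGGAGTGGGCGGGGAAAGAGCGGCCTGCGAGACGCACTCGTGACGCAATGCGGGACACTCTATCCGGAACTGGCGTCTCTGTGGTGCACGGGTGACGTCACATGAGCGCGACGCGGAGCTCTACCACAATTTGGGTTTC
Rpl18: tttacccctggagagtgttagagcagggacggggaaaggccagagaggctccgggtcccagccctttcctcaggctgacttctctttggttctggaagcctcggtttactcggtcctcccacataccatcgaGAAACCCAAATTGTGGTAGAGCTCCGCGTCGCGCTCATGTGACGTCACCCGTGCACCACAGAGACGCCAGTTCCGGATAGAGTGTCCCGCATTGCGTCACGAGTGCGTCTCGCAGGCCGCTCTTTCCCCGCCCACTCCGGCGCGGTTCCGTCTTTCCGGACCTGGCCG
The palindrome TGACGTCA, the cAMP response element, occurs 1 time in the shared bases and was found in 1.79% of all 32851 mouse promoter windows of this length, searched on both strands. Among 411 windows of members between 15 and 60 Mb, 19 held it (4.62%). The GC-rich box GGGCGG occurs 1 time in each of the windows shown, against 35.7% of all windows and 61.8% of those of the 15 to 60 Mb members. The E-box CACGTG and the D-box TTACGTAA do not occur in either. A second, inner start of Sphk2 has a window (chr7:45715158-45715457) that is not shown and lies outside the shared bases. It holds GGGCGG 3 times and no TGACGTCA. A match is a description of letters, not of binding. Of the 1122 members, 836 had a promoter window in the table.

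The genes beside Sphk2 did not move as 1 block. Of the 12 other members whose start lies within 150 kb of that of Sphk2, 8 were higher in KO, 3 lower and 1 did not pass the test. Over all genes tested 79.1% passed at an adjusted p of 0.05, 38.1% higher and 40.9% lower, so a pass in either direction was common. For 79.8% of all genes the CPM of the groups did not overlap, and for 289 of the 340 members from 20 to 50 Mb (85%). Rpl18, a protein of the large ribosomal subunit, was at 126, 135 and 136 CPM in WT and 225, 223 and 226 in KO. Its log2 fold change was 0.76 ± 0.029 (SE, adjusted p = 5.69e-155), and the groups did not overlap. Because the counting used no strand option, reads from the bases it shares with Sphk2 cannot be assigned to either. On the other side lies Dbp, a circadian transcription factor whose exons also share bases with Sphk2. It rose from 6.15, 5.77 and 5.34 CPM to 20.9, 19.2 and 20.1, a log2 fold change of 1.80. Bcat2, the mitochondrial branched-chain aminotransferase, lies 139 kb away on the same side. It was at 42.9, 46.4 and 44.6 CPM in WT and 117, 119 and 117 in KO, a log2 fold change of 1.40.

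Farther in the other direction, Cyth2, an exchange factor for ARF GTPases, was at 89.8, 89.8 and 92.3 CPM in WT and 145, 146 and 149 in KO (log2 fold change 0.70). Grwd1, a histone-binding WD-repeat protein, had 2209, 1530 and 1952 counts in WT and 2627, 2441 and 2642 in KO (0.49). The groups stood clear of each other in CPM for both genes. Rasip1, a Ras-interacting protein of endothelial cells, went the other way, from 3.48, 2.56 and 2.98 CPM to 0.359, 0.351 and 0.267 (log2 fold change -3.21). Lmtk3, a membrane kinase, had 306, 168 and 256 counts in WT and 105, 105 and 123 in KO (-1.07). Car11, a carbonic anhydrase-related protein 9.6 kb from Sphk2, was at 2.45, 2.43 and 2.41 CPM in WT and 2.61, 2.34 and 2.88 in KO. Its groups overlapped, and its log2 fold change of 0.11 did not pass (adjusted p = 0.598). Sec1, a fucosyltransferase gene, was at 3.40, 2.75 and 3.77 CPM in WT and 2.25, 2.22 and 1.92 in KO, a log2 fold change of -0.65. Fam83e, Sult2b1 (a sterol sulfotransferase) and Grin2d (a subunit of the NMDA receptor) had log2 fold changes of 1.87, 2.89 and 1.31, all from 1.94 CPM or less in WT. The neighbours with a mean log2 CPM of at least 5, Bcat2, Rpl18, Cyth2 and Grwd1, were all higher. The lower ones were at 0.87 (Rasip1), 1.51 (Sec1) and 3.25 (Lmtk3). Dbp, Fam83e, Sult2b1 and Grin2d, also below 5, were higher.

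The shift did not fall steadily with distance from Sphk2. The median log2 fold change was 0.73 over the 12 members within 0.15 Mb and 0.73 over the 23 from 0.15 to 0.5 Mb. It was 0.34 over 35 members from 0.5 to 1 Mb, 0.64 over 20 from 1 to 2 Mb and 0.37 over 37 from 2 to 5 Mb. From 10 to 20 Mb, 181 members still had a median of 0.49, and from 20 to 40 Mb, 269 had 0.20. Beyond 40 Mb the median of 526 members was -0.00. These bins pool both sides of Sphk2, and the sides differ, as the windows show.

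By a fit of 1 stretch to these same fold changes, the raised part of chromosome 7 ran from about 18.72 to 46.99 Mb. Sphk2, at 45.71 Mb, lay near its distal end. The stretch from 15 to 60 Mb was picked from levels in these same 6 libraries, so its medians and counts are descriptions. Its 443 members had a median log2 fold change of 0.49 (quartiles 0.04 and 0.90). Of them 296 (66.8%) were higher in KO, 82 (18.5%) lower and 65 did not pass. The 679 members on the rest of the chromosome had a median of 0.00, with 270 higher, 271 lower and 138 not passing. The median was -0.03 over the 13814 genes of the other chromosomes and -0.02 over all genes tested. Over the whole chromosome 566 members were higher, 353 lower and 203 did not pass.

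Each library showed the stretch. Relative to the mean of the WT libraries, the median log2 CPM of its 443 members was -0.00, -0.01 and 0.01 in the WT libraries and 0.48, 0.47 and 0.49 in those labelled KO. For the rest of the chromosome the KO libraries were at 0.02, 0.02 and 0.01. As a share of all counts, genes from 20 to 50 Mb took 1.5%, 1.5% and 1.51% in WT and 2.25%, 2.26% and 2.30% in KO. Without the TMM factors that CPM uses, the mean share in KO was 1.51 times that in WT, while for the remainder of chromosome 7 the ratio was 1.04. Those factors were 0.98 in each WT library and 1.02 in each KO library, so both ratios would be lower on the CPM scale. Replicates of a group therefore differed by far less than the groups.

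**Figure D1:**
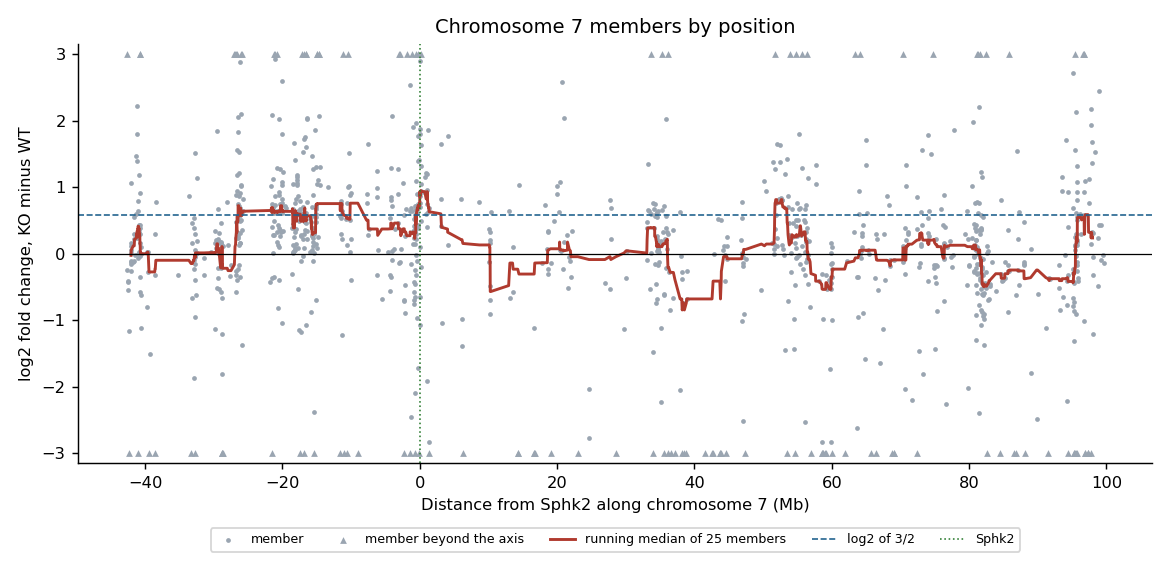
Log2 fold change (KO minus WT) of each of the 1122 members against distance from Sphk2 in Mb; grey points are members, triangles members beyond 3 in either direction, the red line the running median of 25 members, the dashed line the log2 of 1.5 (0.58) and the dotted line Sphk2. The running median rises steeply some 27 Mb before Sphk2, stays mostly above 0.29 and falls within a few Mb after it.

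In 5 Mb windows the shift rose and fell between neighbouring windows and was uneven inside. Before it, the windows from 5 and 10 Mb had medians of -0.14 (18 members) and -0.06 (26 members). The window from 15 Mb had 0.24 (83 members) and joined unlike parts: 42 members from 15 to 19 Mb had a median of 0.06, and 41 from 19 to 20 Mb had 0.64. The next windows had 0.65 (27 members, from 20 Mb), 0.57 (109, from 25 Mb), 0.55 (51, from 30 Mb) and 0.76 (24, from 35 Mb), the highest of chromosome 7 among windows of at least 10 members. From 40 Mb the median was 0.29 (58 members), and from 45 Mb, the window of Sphk2, it was 0.66 (71 members). After that it was -0.98 over only 5 members from 50 Mb and -0.13 over 15 from 55 Mb. The 4 windows from 20 to 40 Mb thus ran from 0.55 to 0.76, around the value for a ratio of 1.5, and the windows from 10 and 55 Mb lay below 0.

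**Figure D2:**
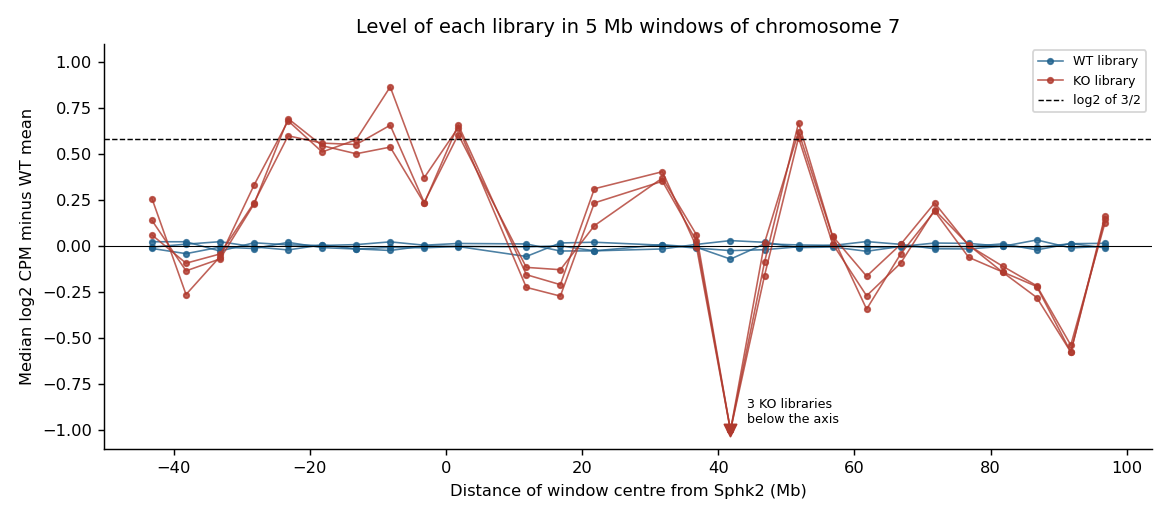
Median log2 CPM minus the WT mean in 5 Mb windows of chromosome 7 with at least 10 members, against the distance of the window's centre from Sphk2 in Mb; blue lines are the 3 WT libraries, red lines the 3 libraries labelled KO, which join across windows with fewer members, and the dashed line the log2 of 1.5. WT libraries stay near 0, KO libraries lie near 0.5 to 0.9 in most windows from 20 to 50 Mb with a dip in the window from 40 Mb, and the window from 85 Mb lies below the axis.

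Over members of all levels, the left border was narrow. Coming from the left, the running median over 25 members was last below 0.29, midway between 0 and the log2 of 1.5, at Nova2 (18.93 Mb), and it first rose above at 18.99 Mb. The 35 members from 15 to 18.72 Mb had a median of 0.02, with 13 higher and 15 lower. The 48 members from 18.72 to 20 Mb had 0.66, with 35 higher and 7 lower. The cut at 18.72 Mb was itself fitted to these fold changes, so its sides contrast in part by construction. Single genes at this border did not mark 1 point: Sympk, a scaffold of the mRNA 3′-end processing complex at 19.02 Mb, was higher (0.48), while its neighbours Irf2bp1 (-0.25) and Dmwd (-0.40) were lower. No member lay between 20 and 23 Mb. None of the 9 members from 18 to 19 Mb had a mean log2 CPM of at least 5. At that level, 9 members from 16 to 17 Mb had a median of 0.16, and 17 from 19 to 20 Mb had 0.50. For genes of that level the left border is thus placed less closely, and the step was smaller.

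Over members of all levels, the right border could be placed only between 46.99 and 51.75 Mb, because few genes lie there. The 63 members from 45 to 46.99 Mb had a median of 0.69, with 48 higher and 11 lower. From there to 51.75 Mb there were 8 members with values in both directions. Zdhhc13, a palmitoyltransferase, and E2f8, an atypical repressor of the E2F family, were higher (0.82 and 1.65). Prmt3, an arginine methyltransferase, was nearly level (0.13), and Nav2, a neuron navigator protein, was lower (-1.05). Beyond, 20 members from 51.75 to 60 Mb had a median of -0.30, with 7 higher and 10 lower, but their median log2 CPM was only 1.97. The 6 members from 55 to 60 Mb with a mean log2 CPM of at least 5 had a median of 0.35 (quartiles 0.15 and 0.57). Among these was Cyfip1, a subunit of the WAVE actin-regulating complex. It was at 225, 231 and 227 CPM in WT and 210, 206 and 207 in KO (-0.13). Tubgcp5 (0.37), Nipa2 (0.32) and the large ubiquitin ligase Herc2 at 56.05 Mb (0.63) were higher. For genes of that level the right border is thus less clear. The single stretch that took up more of the squared deviations of clipped fold changes on chromosome 7 than any other, 10.0% of them, ran from Psg22 (18.72 Mb) to Spty2d1 (46.99 Mb). Its 380 members had a median of 0.58 against 0.01 outside. Both ends were fitted to these same fold changes, so medians on either side of them contrast in part by construction.

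Inside, the level was not flat. Between the rise at 18.99 Mb and the fall after 49.78 Mb lay 384 members. Of these, 97.1% had a running median above 0.29, and 11 lay below. Both ends were set by the same value of 0.29, and the fall was sought only beyond Sphk2. Neighbouring running medians also share most of their members. A high share was therefore largely fixed in advance. The running median was highest, 0.94, at Grin2d (45.83 Mb) just beyond Sphk2, and lowest, 0.23, at Cpt1c (44.96 Mb), less than 1 Mb away. The window from 40 Mb held 16 predicted gene models with a median of 0.05 and 42 other genes with 0.34. From 44 to 45 Mb, 25 members had a median of 0.31, with 15 higher and 9 lower. Neighbours there went opposite ways: Il4i1, a secreted amino-acid oxidase, was at 170, 177 and 170 CPM in WT and 246, 239 and 253 in KO (0.52), while the adjoining Atf5, a stress-response transcription factor, was lower (-0.76). Ptov1, a regulator of the Mediator complex, had 2804, 1824 and 2352 counts in WT and 1444, 1248 and 1441 in KO (-0.70).

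Well-expressed genes followed the stretch more tightly. Of the 340 members from 20 to 50 Mb, 122 had a mean log2 CPM of at least 5, and their median log2 fold change was 0.60 (quartiles 0.32 and 0.85). Of these 111 were higher in KO, 9 lower and 2 did not pass. Genes of that level had a median of 0.06 over 293 members elsewhere on chromosome 7, and -0.01 (quartiles -0.33 and 0.33) over 6298 genes of other chromosomes. Below a log2 CPM of 2, 88 members of the stretch had a median of 0.65, and between 2 and 5, 130 had 0.45. The 9 well-expressed exceptions were Grik5, Erf, Clip3, Hspb6, Atf5, Ptov1, Rcn3, Tead2 and Rpl14-ps1, named after their values were seen; 5 of them lie between Atf5 (44.81 Mb) and Rpl14-ps1 (45.32 Mb). Their log2 fold changes ran from -0.11 (Rpl14-ps1) to -7.13 (Clip3).

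The spread of single genes was wide even so. Of the 340 members from 20 to 50 Mb, 112 (32.9%) lay within 0.25 of the log2 of 1.5, against 16.8% on the rest of chromosome 7 and 16.1% on other chromosomes. More than 2-fold higher in KO were 84 (24.7%) and more than 2-fold lower 26 (7.65%), against 12.5% and 15% on the rest of the chromosome. The distance between quartiles was 0.85 in the stretch, 0.97 on the rest of chromosome 7 and 0.90 on other chromosomes. By quartiles, the stretch thus differed from its surroundings mainly by a displaced centre, and its genes varied nearly as much as genes elsewhere. Its lower tail was shorter: the 10th percentile was -0.69, against -2.25 on the rest of chromosome 7 and -2.08 on other chromosomes. The upper tail was not shortened.

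Chromosome 7 was not alone in having raised windows. Of its 27 windows with at least 10 members, 6 had a median above 0.5, the ones from 20, 25, 30, 35, 45 and 95 Mb. On the other chromosomes this held for 24 of 409 windows, 17 of them on chromosome 8 and 5 on chromosome 6. The longest run of neighbouring windows above 0.25 was 14 on chromosome 8 (60 to 130 Mb), 6 on chromosome 7 (20 to 50 Mb), 6 on chromosome 6 (105 to 135 Mb) and 3 on chromosome 12 (65 to 80 Mb). A window with fewer than 10 members ended a run. On chromosome 12 the windows from 50 and 55 Mb had 0.32 and 0.38. Only the window from 60 Mb, with 3 members and a median of 0.57, parted them from that run. Over all of chromosome 8, 772 genes had a median of 0.64, and 21 of its 22 windows lay above 0.25, so that there the shift covered nearly the whole chromosome. Chromosomes 1, 14 and 16 had medians of -0.29, -0.33 and -0.46. Fitted in the same way, the share taken up by the single stretch on chromosome 7 was the highest of the 20 chromosomes, next to 9.46% on chromosome 12. There 142 genes from 51.3 to 81.0 Mb stood 0.54 above the rest, with a median of 0.35 inside and -0.19 outside. Window medians correlated weakly with the number of members (Pearson r = 0.17) and with their median level (0.17) over all 436 windows, which share their libraries. Over the 27 windows of chromosome 7 these were 0.32 (Spearman 0.48) and 0.22 (Spearman 0.29); the part of gene density and level in the stretch was not tested.

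**Figure D3:**
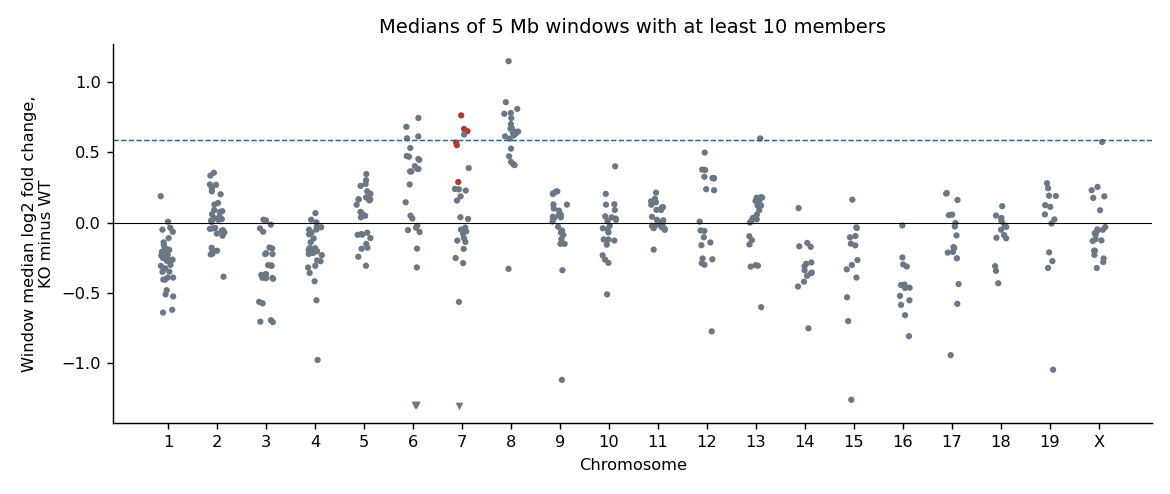
Median log2 fold change (KO minus WT) of each 5 Mb window with at least 10 members, by chromosome, with the 6 windows of chromosome 7 from 20 to 50 Mb in red; triangles are windows below -1.3 and the dashed line is the log2 of 1.5. Chromosome 8 lies above 0.4 in nearly all windows, chromosome 6 spreads upwards, and on chromosome 7 the red windows stand above most others of that chromosome.

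Subunits of constitutive complexes offered a comparison between genes of like function at different places. The cytosolic ribosome, the mitochondrial ribosome, the proteasome and the respiratory chain with ATP synthase are assembled in fixed proportions from subunits that genes on many chromosomes encode. Of these, 10 measured genes lie from 20 to 50 Mb on chromosome 7; 8 were higher in KO, none lower, and their median log2 fold change was 0.51. The 19 elsewhere on chromosome 7 had a median of 0.09 (10 higher, 7 lower), and the 244 on other chromosomes had -0.04 (83 higher, 106 lower). On chromosome 8 alone, 9 such genes had 0.72.

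The 5 cytosolic ribosomal protein genes of the stretch were all higher. Rps19 was at 47.3, 51.8 and 47.8 CPM in WT and 70.8, 79.4 and 77.1 in KO (0.63 ± 0.042 SE). Rpl13a was at 346, 357 and 359 CPM in WT and 436, 440 and 431 in KO (0.30). Rps16 (0.55) and Rpl18 (0.76) were also in the set, whose median of 0.55 stood beside 0.17 over 9 such genes elsewhere on chromosome 7 and 0.05 over 69 on other chromosomes. Ribosomal protein genes have many processed copies, and how reads from these were assigned was not tested. Psmc4, an ATPase of the proteasome's regulatory particle, was at 198, 197 and 198 CPM in WT and 300, 313 and 316 in KO (0.65). Psmd8, another subunit of that particle, had 0.47 and Cox6b1, a subunit of cytochrome c oxidase, 0.59. The exceptions were Mrps12 of the mitochondrial ribosome, at 28.6, 25.6 and 30.5 CPM in WT and 27.1, 28.6 and 27.7 in KO, whose groups overlapped (-0.03, adjusted p = 0.638), and the low Cox7a1 (0.31, adjusted p = 0.288).

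Zinc finger genes, many of them transcriptional repressors that arose by local duplication, sit in clusters at both sides of the left border. By symbol, 47 lie from 15 to 60 Mb, a group that includes Zfp36, which encodes an RNA-binding protein of another class. Of these 36 were higher in KO, 5 lower and 6 did not pass, with a median of 0.57. The 39 on the rest of chromosome 7 had a median of -0.22 (13 higher, 19 lower), and the 239 on other chromosomes 0.05. Zfp180, at 24.08 Mb, was at 35.8, 32.7 and 37.3 CPM in WT and 70.1, 72.5 and 72.5 in KO (1.02). In the same cluster Zfp111 rose (0.75), Zfp428 fell (-0.35), and Zfp109 went from 2.56 to 2.88 CPM in WT to at most 0.0585 in KO. Near-identical family members can share reads, so single values are uncertain.

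**Figure D4:**
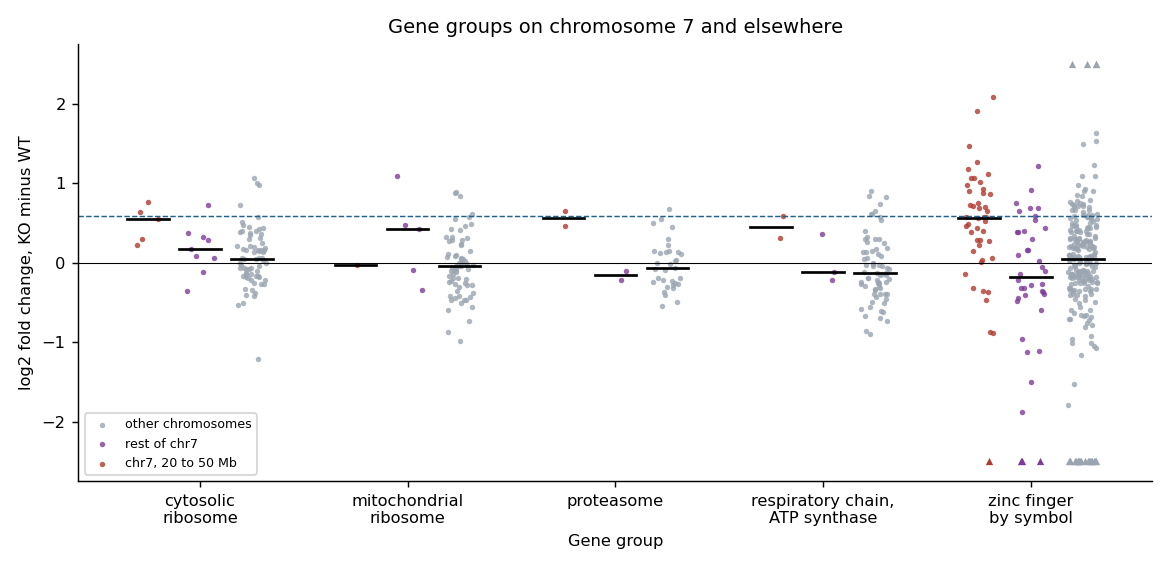
Log2 fold change (KO minus WT) of genes of 4 constitutive complexes and of zinc finger genes, for chromosome 7 from 20 to 50 Mb (red), the rest of chromosome 7 (purple) and other chromosomes (grey); bars are medians, triangles genes beyond 2.5 and the dashed line the log2 of 1.5. Red medians lie near 0.5 in each group but the mitochondrial ribosome, which has 1 gene in the stretch.

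Members of unrelated function in the stretch were raised in most lists, as were 66.8% of all 443 members from 15 to 60 Mb. Of 17 genes for RNA processing and transcription from 15 to 60 Mb, 14 were higher and 1 lower (median 0.48). Supt5, an elongation factor of RNA polymerase II, was at 208, 211 and 203 CPM in WT and 329, 331 and 330 in KO (0.67). U2af1l4, a splicing factor, had 0.74. Of 15 metabolic and mitochondrial genes 13 were higher and 1 lower (median 0.58). Ldha, the lactate dehydrogenase A subunit, was at 1392, 1438 and 1428 CPM in WT and 2334, 2417 and 2366 in KO (0.74 ± 0.020 SE, adjusted p = 4.97e-294). Gpi1, glucose-6-phosphate isomerase, was at 325, 325 and 320 CPM in WT and 474, 483 and 497 in KO, 1.5 times as high. The branched-chain keto acid dehydrogenase subunit Bckdha had 1.07. Cpt1c, a brain-type carnitine palmitoyltransferase, was the member that fell, from 316, 195 and 253 counts to 2, 3 and 3 (-6.45).

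Of 9 apoptosis and stress genes in the stretch 7 were higher and 1 lower (median 0.39). Bax, a pore-forming death protein, was at 76.8, 80.6 and 80.7 CPM in WT and 124, 128 and 132 in KO (0.69). Ppp1r15a, which restores translation after stress, had 0.73, and the kinase Akt2 0.60. Of 7 DNA repair and replication genes 6 were higher (median 0.31), among them the helicase Ercc2 (0.86) and Ppp1r13l, an inhibitor of p53 (0.56). The one lower was Fancf of the Fanconi anaemia complex (-0.98), which at 51.86 Mb lies beyond the right border and shares exon bases with Gas2 (-1.38). Of 4 cell cycle genes 3 were higher, including Pdcd5 (0.91). The kinase Dyrk1b was lower (-1.14), with 165, 115 and 148 counts in WT and 69, 64 and 53 in KO.

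Signalling and cell-surface genes went in both directions, in shares near those of all 443 members from 15 to 60 Mb (66.8% higher, 18.5% lower). Of 13 genes for signalling and transcription factors 9 were higher and 3 lower (median 0.36). Tgfb1, the growth factor that drives matrix production in fibroblasts, was at 30.6, 31.6 and 30.6 CPM in WT and 108, 105 and 108 in KO (1.79). Cebpa, a factor of adipocyte and myeloid differentiation, went the other way, with 184, 131 and 160 counts in WT and 0, 1 and 0 in KO. Its ratio of WT over KO was 456, with a 95% counting interval of 81.5 to 18067. Of 16 cell-surface and matrix genes 12 were higher and 4 lower (median 0.72). Apoe, a lipid carrier, was at 5.20, 4.66 and 4.76 CPM in WT and 18.6, 22.1 and 22.9 in KO (2.11). Fxyd5, a modulator of the sodium pump, had 2.07, and Rcn3, a chaperone of the secretory pathway that acts on collagen, -2.10.

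Single members changed many-fold in both directions, and those named here had a mean log2 CPM of at least 3. Lypd3, a GPI-anchored protein of stratified epithelia, rose from 2, 4 and 1 counts to 325, 314 and 375 (7.16), and Lgals7, an epithelial galectin, from 42, 31 and 45 to 1409, 1195 and 1370 (5.13). Cadm4, an adhesion molecule, rose from 7.09, 7.48 and 7.22 CPM to 71.7, 76.4 and 76.2 (3.37). Eid2, an inhibitor of differentiation, had 369, 219 and 332 counts in WT and 0 in each KO library, so it was at least 295-fold lower, against a floor of 3 counts over the group. Kctd15, a repressor of neural crest formation (-7.35), Clip3, a cytoplasmic linker protein (-7.13), Iglon5, a neural adhesion molecule (-6.77), and Dact3, a Wnt pathway antagonist at 16.88 Mb (-3.04), were the next lowest at that level. Actn4, a cross-linker of actin filaments and the highest-level member from 25 to 30 Mb, was at 748, 775 and 784 CPM in WT and 811, 802 and 835 in KO (0.09). Uri1, a prefoldin-like chaperone, was at 87.5, 86.7 and 87.0 CPM in WT and 165, 159 and 163 in KO (0.90). Kcnn4, a calcium-activated potassium channel, had 1.12.

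Outside the stretch, chromosome 7 held 1 other window with a median above 0.5, and the window from 75 Mb had 0.39 over 20 members (11 higher, 6 lower). In the former, the 40 members from 95 to 100 Mb had a median of 0.63, with 28 higher, 4 lower and 8 not passing, and the KO libraries stood at 0.62, 0.67 and 0.59 relative to the WT mean. This raised part was shorter than the stretch around Sphk2: 18 members from 90 to 95 Mb had a median of -0.08, 28 from 95 to 99 Mb had 0.79, and 59 from 100 to 105 Mb had 0.03. The limit of 99 Mb is not a window edge, and the value of 0.79 depends on it. The 18 members from 95 to 100 Mb with a mean log2 CPM of at least 5 had a median of 0.47. In the window from 85 Mb, 6 of 11 members were lower, 2 higher and 3 did not pass. Its median was -4.39 (quartiles -7.91 and 0.09), but 0.06 over its 3 members with a mean log2 CPM of at least 5. The window from 135 Mb had -0.56 over 16 members, 11 of them lower.

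Imprinted genes, which are expressed from the allele of 1 parent and lie in clusters on chromosome 7, had the widest spread. Of 28 on the list 19 were members, 3 of these between 15 and 60 Mb; 8 were higher, 11 lower, and the median was -1.12, the value of Mkrn3. Ndn and Magel2, MAGE family genes of the cluster near 62 Mb, were nearly absent in KO. Ndn had 1337, 1004 and 1221 counts in WT and 2, 1 and 0 in KO, a ratio of 1141 (95% counting interval 390 to 5536), and Magel2 had 107, 56 and 89 counts against none, at least 80.7-fold lower. At the distal end, the non-coding RNA H19 had 739, 548 and 607 counts in WT and 1, 1 and 0 in KO, a ratio of 910 (252 to 7520). The cell cycle inhibitor Cdkn1c had 797, 567 and 626 counts in WT and 23, 18 and 30 in KO (-4.75). The intervals cover counting error only.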

How the data were processed

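RNA was measured in 3 WT and 3 KO libraries. The authors deposited 1 table per library of raw read counts per gene, made with featureCounts 1.6.2 on the Ensembl release 83 annotation with GRCm38 coordinates, per the file headers, with no strand, multi-mapping or multi-overlap option. The submitters' processing notes list featureCounts 1.2.6 and Subread 1.6.2, besides FastQC 0.11.2 and Trimmomatic 0.33. The aligner's settings are not given in the sources used here.

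All 14936 genes with a summed count of at least 60 were fitted with edgeR 4.0.16 (TMM factors, robust quasi-likelihood F-test, KO against WT, Benjamini-Hochberg over all genes, threshold 0.05; limma 3.58.1 and DESeq2 1.42.0 in alternatives). The fit was tested on simulated data. CPM uses TMM-adjusted library sizes. Position is a gene's smallest exon start. Windows of 5 Mb, a running median of 25 members and the least-squares stretch (fold changes clipped at 1 in either direction, at least 20 members) are descriptions without a test. The members, the 15 to 60 Mb stretch and the gene lists were chosen with earlier results of these data known. Named genes are Sphk2, members within 150 kb, the highest-level member of each window from 15 to 60 Mb, the 5 largest called differences in each direction from 15 to 60 Mb (mean log2 CPM of at least 3, groups not overlapping) and the 3 largest called of each list (mean log2 CPM of at least 1); genes at the borders, exceptions and complex subunits were added after their values were seen. A few genes that the rule names are not reported here. Totals per library (15598566 to 23681718 counts) put 3 counts at 0.129 to 0.197 CPM. Replicate pairs differed beyond sampling noise (chi-square per degree of freedom 1.49 to 2.15). That does not show whether they came from separate embryos or cultures. Each library was counted as 1, although libraries of a group could be technical replicates.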

Additional observations from a re-analysis of the deposited data

How the results depend on the processing

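No value changed direction and no gene that the naming rule chose changed its side of the threshold: all 560 values of these 56 genes were kept under RLE factors, DESeq2, limma-voom, the replicate block and leaving out each library. The median of all genes moved by at most 0.01 on the log2 scale under the other scalings.

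With each library left out in turn, the 15 to 60 Mb median ran from 0.47 to 0.50, its distance from the rest of chromosome 7 from 0.46 to 0.49, its distance from other chromosomes from 0.50 to 0.53, and the highest window median from 0.67 to 0.83. Members of the stretch called higher ran from 283 to 291 and lower from 78 to 80; for the chromosome these were 545 to 557 and 341 to 350. With only genes of mean log2 CPM of at least 5, the median was 0.53 and its distance from other chromosomes 0.54, with 139 higher and 17 lower in the stretch and 252 and 119 on the chromosome, since fewer genes were tested. Without predicted models the median was 0.52, and its distances were 0.51 (rest of chromosome 7) and 0.56 (other chromosomes). The mean in place of the median gave 0.36. The highest window median was 0.85 with the filter of over 1 CPM in 3 libraries, 0.59 in 10 Mb windows and 0.63 in 5 Mb windows shifted by 2.5 Mb. With limits of 20 to 50 Mb, chosen after seeing the data, the median was 0.57 and the distances were 0.53 and 0.60. The other alternatives kept each region value within the replicate SD and each count within 1.5 times.

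No label says whether WT and KO libraries of the same replicate number shared a step, and this was not tested. Same-number correlations were small (0.010, 0.021 and 0.036), though each library correlated best with its own number. With the replicate block, 293 members of the stretch were higher and 82 lower, against 296 and 82. Depth limits low genes: 3 counts are 0.129 to 0.197 CPM.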
